A study of Homo sapiens with 12 samples.

Results

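The 10 genes described here encode feedback inhibitors and transcriptional outputs of the ERK (extracellular signal-regulated kinase) pathway: the phosphatase genes DUSP4, DUSP5 and DUSP6, the Sprouty genes SPRY1, SPRY2 and SPRY4, the related genes SPRED1 and SPRED2, and the ETS factor genes ETV4 and ETV5. They were chosen by symbol and are 10 of the 26364 genes counted. All 10 passed the filter on low counts that left 12858 genes for testing. The samples were cultures of RKO, an established line from a human colon carcinoma, and of its derivatives. RNA-seq counts of polyadenylated RNA came from 12 libraries in 6 groups of 2. WT was the line wild type for PRDM1, and KO2 and KO5 were knockout derivatives made with CRISPR/Cas9. GFP overexpressed green fluorescent protein, and alpha and beta overexpressed the PRDM1α or PRDM1β form of PRDM1, a zinc finger transcriptional repressor. The labels give neither promoter nor vector, nor whether a derivative was a single clone, and they do not state whether libraries of 1 group were grown separately, so p-values measure only the spread between these libraries.

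In the ERK pathway, receptors activate RAS, RAS activates the RAF kinases, RAF phosphorylates MEK, and MEK phosphorylates ERK. Active ERK raises transcription of its own inhibitors. DUSP phosphatases remove phosphates from ERK, Sprouty and SPRED proteins act at or above RAF, and the ETS factors ETV4 and ETV5 carry the signal to further genes. RKO is known for an activating mutation in BRAF, which drives the pathway below RAS and below part of this feedback. Counts per gene do not read that mutation, nor do they measure ERK phosphorylation.

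Gene counts per library ranged from 19058967 to 55961821. PRDM1 had 0 to 6 counts in each WT, KO2, KO5 and GFP library and 9681 to 28423 in each alpha and beta library. PRDM1 was thus overexpressed where labelled, but counts per gene cannot tell its forms apart, and GFP itself was not checked. The counts could not test the knockouts. Of the epithelial markers, KRT8 and KRT18 were abundant (group means of 493 to 783 and 309 to 372 CPM) and CDX2 lay at 13.3 to 16.8 CPM. EPCAM had 0 counts in every library, which allows up to 0.157 CPM in the shallowest, and CDH1, KRT19 and VIL1 had at most 2, so these defining markers of the labelled colon epithelial type were absent. Leukocyte markers had at most 1 count, and the 6 fibroblast markers summed to between 8.52 and 12.9 CPM over the libraries, mainly COL1A1 and PDGFRB, with DCN at 0. Fold changes of GFP against WT and of KO5 against WT followed transcript GC content (Spearman -0.66 and -0.51 across 12122 genes), against 0.18 for alpha and 0.14 for beta against GFP.

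Levels are CPM, which are counts scaled to 1 library size with TMM factors (trimmed means of M values). A difference is a log2 fold change ± its standard error (SE) from edgeR, with 2 libraries in each group. A gene passed where its adjusted p, from edgeR's quasi-likelihood test and adjusted by Benjamini-Hochberg over all 12858 genes, was under 0.05.

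To compare genes, levels were divided by the length of the longest annotated transcript. In wild-type cells the ETS factor genes and 2 Sprouty genes led. ETV4 stood at 30.6 ± 0.685 CPM per kb (mean ± SD, n = 2), SPRY2 at 25.9 ± 0.0664, ETV5 at 23.4 ± 0.336 and SPRY4 at 20.7 ± 0.549. SPRED2 followed at 16.1 ± 0.0323. DUSP6 and DUSP5 both stood at 7.55 CPM per kb, with SDs of 0.426 and 0.282, and could not be ordered. SPRED1 was at 6.31 ± 0.144 and SPRY1 at 3.42 ± 0.0019. DUSP4 was lowest at 0.992 ± 0.0774, with 107 to 294 counts per library. Among tested genes of known length ETV4 lay at percentile 82.2 and DUSP4 at percentile 14.6 of the wild-type level per length. With alpha the order of the leading Sprouty genes was the opposite, at 33.1 CPM per kb for SPRY4 and 11.8 for SPRY2. The same held with beta, at 29.1 and 11.7, and by a small margin in KO2, at 22.2 and 20.8. This order rests on the longest transcripts, of 5349 bases for SPRY4 and 2708 for SPRY2, and the SDs do not cover the choice of length. In CPM, without division by length, SPRY4 lay above SPRY2 in every group, at 110.8 and 70.0 in WT.

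**Figure D1:**
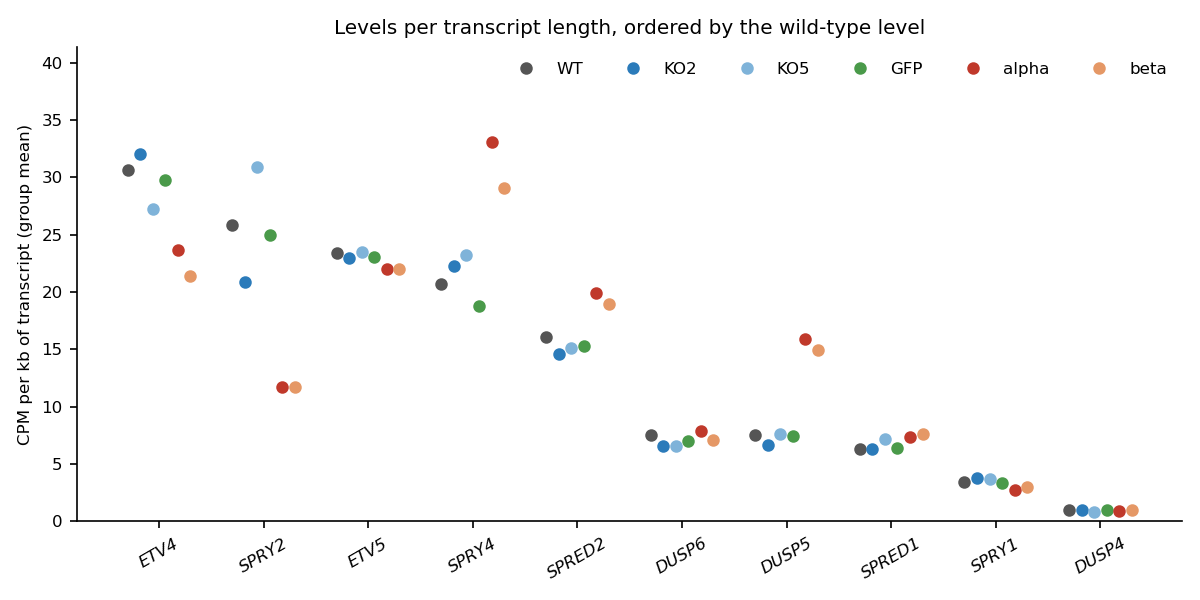
Mean level of each gene in CPM per kb of its longest annotated transcript (vertical axis), with genes ordered by the wild-type level and 1 point for each of the 6 groups. SPRY2 was at 25.9 in WT and 11.8 with alpha, SPRY4 at 20.7 and 33.1, and DUSP5 at 7.55 and 15.9, while the ETV5 points lie close together.

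Both forms of PRDM1 were compared with GFP to ask how the feedback genes stood when PRDM1 was overexpressed. The genes did not move as a block. DUSP5, SPRY4, SPRED1 and SPRED2 rose with both forms, and SPRY2 and ETV4 fell with both. DUSP6 (higher) and SPRY1 (lower) passed with alpha and not with beta, and DUSP4 and ETV5 passed with neither form. With alpha 5 rose and 3 fell, where 21.2% of all tested genes rose and 16.3% fell (37.5% in all). With beta 4 rose and 2 fell, where 22.9% rose and 18% fell (40.9% in all). The libraries did not overlap between groups for 10 of the 10 genes with alpha and for 8 with beta, beside 65.7% and 67.9% of all tested genes. The median log2 fold change of the 10 was 0.04 with alpha and 0.01 with beta, beside 0.01 and 0.01 over all tested genes. Both comparisons used the same GFP libraries.

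**Figure D2:**
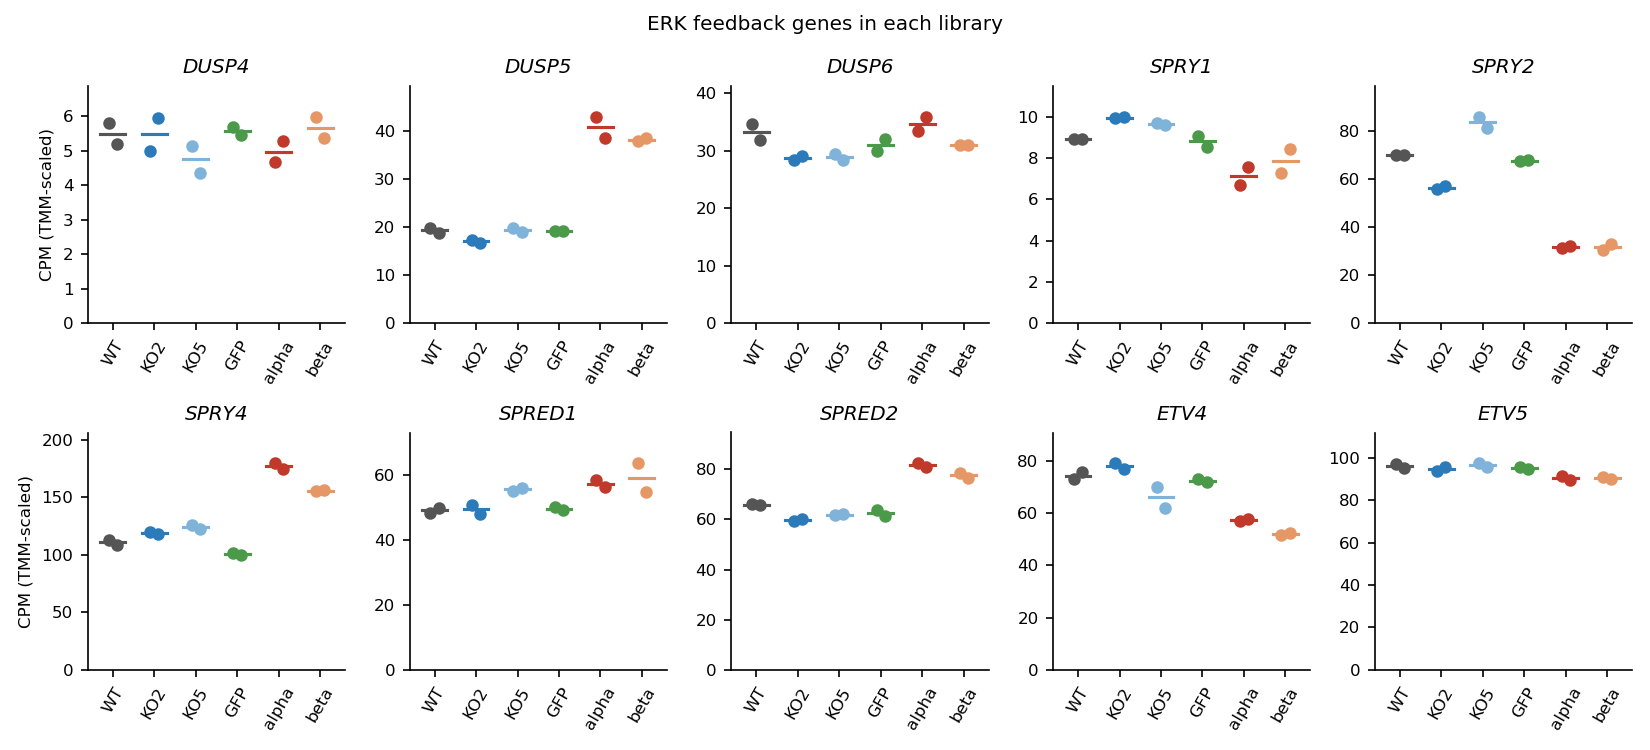
Level of each gene in each library (points, CPM with TMM scaling, axes from 0), with the group mean as a bar. DUSP5 and SPRY4 are highest and SPRY2 is lowest in the 4 libraries that overexpress PRDM1, whereas ETV5 lies between 89.5 and 97.2 CPM in all 12 libraries.

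Among the phosphatase genes, only DUSP5 changed by a large amount. DUSP5 encodes a nuclear phosphatase specific for ERK. Its level was 19.1 CPM in each GFP library, 42.8 and 38.6 in the alpha libraries and 37.8 and 38.5 in the beta libraries. All 4 libraries with PRDM1 lay above every other library, none of which exceeded 19.8 CPM. It rose by 1.09 ± 0.07 with alpha (adjusted p = 1.26e-19) and by 1.00 ± 0.07 with beta (adjusted p = 7.17e-18), the 215th and 213th highest of 12858 fold changes. DUSP5P1, its pseudogene, had 11 to 37 counts beside 490 to 1066 for DUSP5. How reads that fit both copies were counted is not stated.

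DUSP6, a cytoplasmic ERK phosphatase widely read as a gauge of pathway output, showed 29.99 and 32.0 CPM in the GFP libraries, 33.4 and 35.9 in the alpha libraries and 31.1 in each beta library. It rose by 0.16 ± 0.06 with alpha (adjusted p = 0.0356), and stood at 0.00 ± 0.06 with beta (adjusted p = 0.977). The call with alpha was lost without GFP replicate 1 (0.11) or alpha replicate 2 (0.11), with WT as the control (0.06), with only the compared groups fitted (0.14) and by the DESeq2 Wald test (0.15). DUSP4, a nuclear phosphatase of ERK and other MAP kinases, was at 5.57 ± 0.161 CPM with GFP, 4.97 ± 0.432 with alpha and 5.67 ± 0.433 with beta (mean ± SD, n = 2). Its differences of -0.17 ± 0.14 and 0.02 ± 0.14 did not pass, and their 95% intervals ran from -0.45 to 0.11 and from -0.25 to 0.29, so moderate changes of this weakly expressed gene were not detectable.

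The Sprouty genes split. SPRY2, whose protein inhibits the pathway downstream of receptors, had 67.3 and 67.9 CPM in GFP cells. Its alpha libraries had 31.5 and 32.2 and its beta libraries 30.6 and 32.8. The PRDM1 libraries lay far below all others, the lowest of which was a KO2 library at 55.8 CPM. SPRY2 fell by 1.09 ± 0.06 with either form (adjusted p = 2.83e-23 with alpha and 3.36e-23 with beta), the 165th and 223rd lowest of 12858 fold changes. In RNA from whole cultures, fewer cells that express a gene and less RNA per cell cannot be told apart.

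SPRY4, a further Sprouty gene, went the other way. It rose from 101 and 99.7 CPM in the GFP libraries to 179 and 175 in those with alpha and to 155 and 156 in those with beta. The rise was 0.82 ± 0.04 with alpha (adjusted p = 1.00e-24) and 0.63 ± 0.04 with beta (adjusted p = 4.70e-20). The 4 PRDM1 libraries were again above the rest, which reached 126 CPM in KO5. GFP was the lowest of the 6 groups for this gene, and against WT the rises were smaller, at 0.68 and 0.49 for alpha and beta. SPRY4, DUSP6 and ETV5 each overlap an antisense gene in the annotation that was not counted under its own name here. Without stated strand use such reads cannot be told apart.

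SPRY1 was weakly expressed, at 9.08 and 8.53 CPM in GFP cells, 6.70 and 7.55 in alpha cells and 7.28 and 8.41 in beta cells. It fell by 0.31 ± 0.11 with alpha (adjusted p = 0.0227) and stood at -0.15 ± 0.11 with beta (adjusted p = 0.267). The call with alpha was lost without GFP replicate 1 (-0.27) or alpha replicate 1 (-0.22) and by the DESeq2 Wald test (-0.32). The difference between the forms was -0.16 ± 0.12 (adjusted p = 0.510), so a change with alpha alone was not shown.

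SPRY2 and SPRY4 moved in opposite directions by the largest amounts of their family, so the 250 bases before their RefSeq starts (GRCh38.p14) are shown, 5′ to 3′ on the strand of the gene. The SPRY2 window is the most upstream of its 3 starts, at chr13:80341127-80341376, minus strand, and the SPRY4 window is at chr5:142324248-142324497, minus strand. Capitals mark matches to any of the motifs searched on both strands.
SPRY2: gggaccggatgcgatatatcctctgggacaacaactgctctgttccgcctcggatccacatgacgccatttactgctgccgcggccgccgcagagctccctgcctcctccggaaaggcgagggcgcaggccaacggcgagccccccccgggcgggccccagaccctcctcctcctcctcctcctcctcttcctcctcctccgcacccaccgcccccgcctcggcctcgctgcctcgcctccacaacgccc
SPRY4: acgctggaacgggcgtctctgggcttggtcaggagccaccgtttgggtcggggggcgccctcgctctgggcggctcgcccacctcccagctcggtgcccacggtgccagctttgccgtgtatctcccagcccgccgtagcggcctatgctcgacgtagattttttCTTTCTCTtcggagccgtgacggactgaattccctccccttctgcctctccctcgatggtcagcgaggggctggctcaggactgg

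The motifs were AGNGAAAG for PRDM1, CCGGAAGT for ETS factors, TGAATGNA for the repressor CIC, TGANTCA for AP-1 and TGACGTCA for CRE factors. They occurred in 6.57%, 3.42%, 3.25%, 6.57% and 1.65% of 35116 RefSeq windows of this length. Of the 10 genes, 6 had entries, with 10 start windows in all (DUSP6, SPRY1, SPRY2, SPRY4, SPRED1 and SPRED2). The SPRY4 window held 1 match, to the PRDM1 motif read on the other strand, which began 85 bases before the start and overlapped no other motif. The other 9 windows held none, which says only that these letters are not there. A PRDM1 match in 1 of 10 windows is near the share of 6.57% over all windows, and binding by PRDM1 was not measured.

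SPRED1 and SPRED2 encode proteins that bring neurofibromin to the membrane and thereby restrain RAS. SPRED2 had 63.9 and 61.2 CPM in the GFP libraries, 82.3 and 80.9 in the alpha libraries and 78.6 and 76.4 in the beta libraries. It rose by 0.38 ± 0.05 with alpha (adjusted p = 2.77e-10) and by 0.31 ± 0.05 with beta (adjusted p = 8.50e-08), and the groups did not overlap. SPRED1 rose less, by 0.21 ± 0.05 with alpha (adjusted p = 0.00132) and by 0.25 ± 0.05 with beta (adjusted p = 1.62e-04). Its beta libraries were unequal, at 63.5 and 54.8 CPM, beside 49.97 and 49.2 with GFP. Without beta replicate 1 the rise with beta was 0.15 and the call was lost.

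The ETS factor genes ETV4 and ETV5 belong to the PEA3 subfamily, and only ETV4 passed against GFP. The difference between the 2 genes was not tested. ETV4 had 73.0 and 71.8 CPM in the GFP libraries, 57.0 and 57.8 in the alpha libraries and 51.7 and 52.4 in the beta libraries. ETV4 fell by 0.34 ± 0.05 with alpha (adjusted p = 1.62e-07) and by 0.48 ± 0.05 with beta (adjusted p = 3.32e-11), and no PRDM1 library overlapped any other. DHX8, which lies on the opposite strand and overlaps ETV4 in the annotation, held 2026 to 5798 counts per library, and whether the counting used strand is not stated. ETV5 had 95.5 and 94.4 CPM in the GFP libraries, 91.2 and 89.5 in the alpha libraries and 90.9 and 90.1 in the beta libraries. Its differences of -0.07 ± 0.04 with alpha and -0.07 ± 0.04 with beta did not pass (adjusted p = 0.153 for each), with 95% intervals from -0.15 to 0.01 and from -0.15 to 0.02. Against WT in place of GFP both were -0.09 and passed. DGKG, which overlaps ETV5 on the same strand, held 258 to 839 counts beside 1734 to 5397 for ETV5. The group means of ETV5 spanned 1.07-fold from lowest to highest, narrower than in all but 1.77% of tested genes, whereas those of SPRY2 spanned 2.63-fold and those of DUSP5 2.38-fold.

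**Figure D3:**
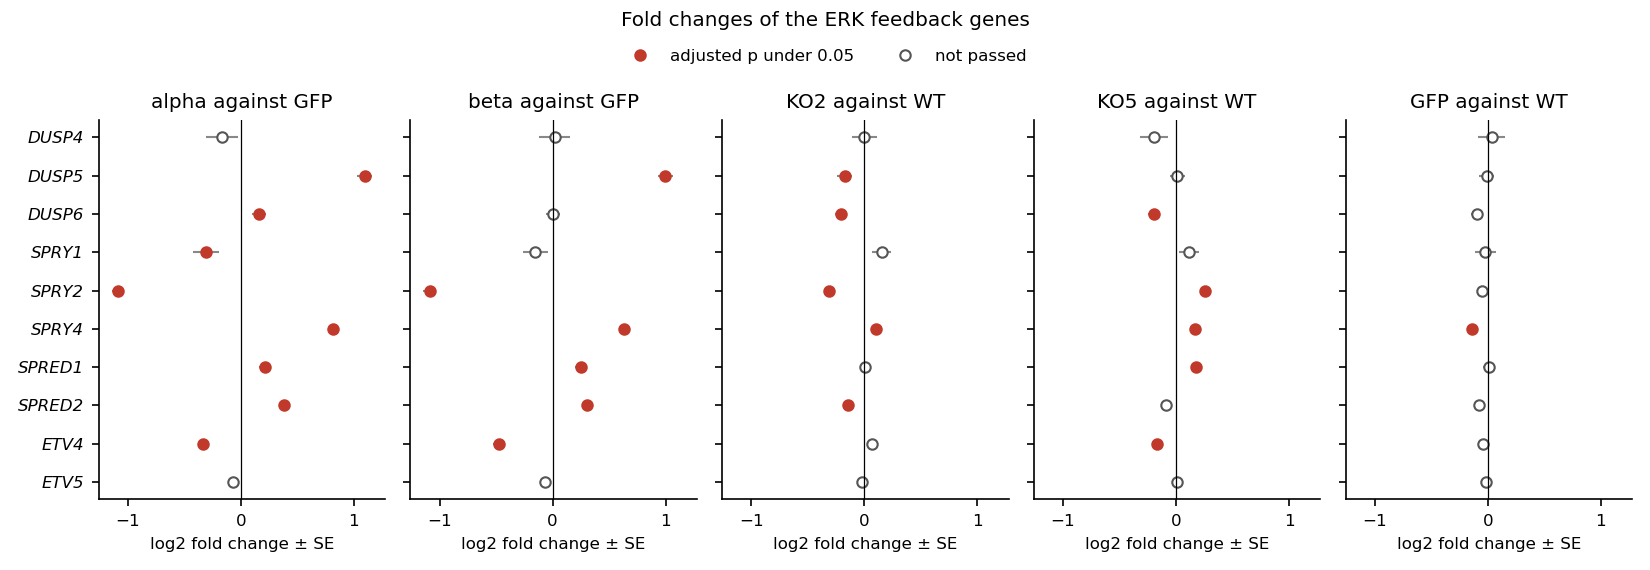
Log2 fold change ± SE (horizontal axis, n = 2 libraries per group) of each gene in 5 comparisons, with filled points for adjusted p under 0.05 and open points otherwise. DUSP5 at 1.09 and SPRY2 at -1.09 with alpha mark the ends of the range, and the knockout and control comparisons lie between -0.31 and 0.26.

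The forms were compared directly. Only SPRY4 passed, and it was higher with alpha, where 6.24% of all tested genes passed (3.45% higher and 2.79% lower). The difference was 0.19 ± 0.04 (adjusted p = 1.42e-04). SPRY2 stood at 0.00 ± 0.06 between the forms (95% interval -0.12 to 0.12) and DUSP5 at 0.10 ± 0.06 (-0.02 to 0.22). PRDM1 transcripts were fewer with alpha, at 477 to 487 CPM against 1172 to 1173 CPM with beta. Form and amount of PRDM1 transcript therefore cannot be told apart. ETV4 was higher with alpha by 0.14 ± 0.05 and DUSP6 by 0.15 ± 0.06, and neither passed (adjusted p = 0.108 and 0.149).

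The knockout derivatives were each compared with WT to ask how the feedback genes stood without PRDM1, which was itself near 0 in wild-type cells. No gene changed by more than 0.31 on the log2 scale. In KO2 1 gene rose and 4 fell, where 15.1% of all tested genes rose and 14.9% fell (30% in all). In KO5 3 rose and 2 fell, where 25.2% rose and 25.9% fell (51.2% in all), so the count in KO5 was at the background. Whether the count in KO2 stood above its background was not tested. SPRY4 was higher and DUSP6 lower in both derivatives, and SPRY2 was lower in KO2 and higher in KO5. Both comparisons used the same WT libraries.

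SPRY2 was at 69.9 and 70.1 CPM in WT, 55.8 and 57.0 in KO2, and 85.8 and 81.4 in KO5. None of these groups overlapped. It fell by 0.31 ± 0.04 in KO2 (adjusted p = 1.96e-08) and rose by 0.26 ± 0.04 in KO5 (adjusted p = 4.73e-07). KO5 exceeded KO2 by 0.57 ± 0.04 (adjusted p = 2.52e-16), so the derivatives differed for SPRY2, and both lay well above the libraries with PRDM1. With the trend along GC content removed, the difference was 0.53.

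SPRY4 was at 113 and 109 CPM in WT, 120 and 118 in KO2, and 126 and 123 in KO5. It rose by 0.11 ± 0.04 in KO2 (adjusted p = 0.0106) and by 0.17 ± 0.04 in KO5 (adjusted p = 3.76e-05). The KO2 call was lost without WT replicate 2 (0.08) or KO2 replicate 1 (0.10). DUSP6 was at 34.6 and 31.9 CPM in WT, 28.4 and 29.1 in KO2, and 29.4 and 28.4 in KO5. It fell by 0.21 ± 0.05 in KO2 (adjusted p = 0.00167) and by 0.20 ± 0.06 in KO5 (adjusted p = 0.00226). Both calls were lost without WT replicate 1, the higher WT library, at -0.15 and -0.14.

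Of the other genes in KO2, DUSP5 fell by 0.17 ± 0.06 (adjusted p = 0.0253) and SPRED2 fell by 0.14 ± 0.04 (adjusted p = 0.00362). The DUSP5 call was lost without WT replicate 1 (-0.14), KO2 replicate 1 (-0.20) or KO2 replicate 2 (-0.15), with the GC trend removed (-0.14) and by the DESeq2 Wald test (-0.17), and the SPRED2 call without KO2 replicate 1 (-0.13). In KO5 SPRED1 rose by 0.18 ± 0.05 (adjusted p = 0.00184) and ETV4 fell by 0.17 ± 0.04 (adjusted p = 7.39e-04), the latter from 73.2 and 75.6 CPM to 70.1 and 62.1. ETV4 has the highest GC content of the 10, at 60.8%, and SPRED1 the lowest, at 38.9%. With the GC trend removed SPRED1 was at 0.07 and ETV4 at 0.05 in KO5, and neither passed, whereas ETV4 in KO2 (0.12, from 0.07) and SPRED2 in KO5 (-0.09, from -0.09) then passed; without KO5 replicate 2 ETV4 was at -0.09 and did not pass. DUSP4, SPRY1 and ETV5 passed in neither derivative, at -0.00 ± 0.11, 0.16 ± 0.08 and -0.02 ± 0.04 in KO2 and -0.20 ± 0.12, 0.11 ± 0.09 and 0.01 ± 0.04 in KO5.

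Set directly against each other, KO5 was higher than KO2 for 3 genes (SPRY2, DUSP5 and SPRED1) and lower for 1 (ETV4), where 26.9% of all tested genes were higher and 28.1% lower (54.9% in all). DUSP5 was higher by 0.19 ± 0.07 (adjusted p = 0.0148) and SPRED1 by 0.17 ± 0.05 (adjusted p = 0.00275), and ETV4 was at -0.24 ± 0.04 (adjusted p = 7.76e-06). With the GC trend removed SPRED1 was at 0.01 and ETV4 at -0.08 and neither passed. The DUSP5 call was lost without KO2 replicate 2 (0.16) or KO5 replicate 1 (0.16) and by the DESeq2 Wald test (0.19).

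The control groups were also compared with each other. Of the 10 only SPRY4 passed and it was lower, where 19% of all tested genes passed (8.81% higher and 10.2% lower). It was lower in GFP by 0.14 ± 0.04 on the log2 scale (adjusted p = 0.00373, with levels of 100.5 CPM in GFP and 110.8 in WT). The call was lost without WT replicate 1 (-0.11) and with the GC trend removed (-0.12). The other 9 genes lay between -0.09 and 0.03.

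Overexpression was last set against knockout, as the mean of alpha and beta against the mean of KO2 and KO5. Of the 10 genes 5 were higher and 4 lower, where 31% of all tested genes were higher and 27.7% lower (58.8% in all), and DUSP4 did not pass (0.06 ± 0.10). DUSP5 was higher by 1.12 ± 0.05 (adjusted p = 9.13e-27), SPRED2 by 0.39 ± 0.03 and SPRY4 by 0.45 ± 0.03. SPRY2 was at -1.11 ± 0.04 (adjusted p = 1.21e-30), ETV4 at -0.39 ± 0.03, SPRY1 at -0.39 ± 0.08 and ETV5 at -0.08 ± 0.03 (adjusted p = 0.00993). In the authors' deposited table of alpha against knockout 7 of the 10 passed at 0.05, beside 16.4% of the 12461 genes with an adjusted p there, with DUSP5 at 1.07 (SE 0.11) and SPRY2 at -0.92 (SE 0.16). In the authors' deposited table of beta against knockout 5 passed, beside 19.5% of 12447 genes, with DUSP5 at 0.99 (SE 0.10) and SPRY2 at -0.93 (SE 0.16). The deposited contrasts each take a single form and come from DESeq2, so their values and counts are not like for like with those above.

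Other genes of the pathway were read from lists chosen by function, with earlier results of these data known. Their counts stand beside the shares of all tested genes that passed, 37.5% with alpha, 40.9% with beta, 30% in KO2 and 51.2% in KO5, and beside all-gene medians within 0.02 of 0. The alternative settings were read for the 10 members only. Values of list genes in KO5, where fold changes followed GC content (Spearman -0.51), were thus not checked with that trend removed. Among 10 close relatives of the 10 genes, 9 were tested. With alpha 4 rose and 2 fell (37.5% of all genes passed), and with beta 3 rose and 3 fell (40.9%), with medians of 0.23 and 0.12. In KO2 2 rose and 2 fell, and in KO5 2 rose and 2 fell. ETV1, the remaining PEA3 gene, fell by 1.33 ± 0.11 with alpha (adjusted p = 3.98e-15) and by 1.37 ± 0.11 with beta (adjusted p = 2.04e-15), from 14.7 CPM with GFP to 5.88 and 5.75, a larger fall than that of ETV4. ETV1 rose by 0.40 ± 0.07 in KO5. Of the MAP kinase phosphatase genes, DUSP8 rose by 0.42 ± 0.10 and 0.32 ± 0.10 and DUSP1 by 0.30 ± 0.08 and 0.27 ± 0.08 with alpha and beta, whereas DUSP16 fell by 0.31 ± 0.08 and 0.35 ± 0.08.

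For the kinase cascade itself, the share of genes that passed was near the background with beta and below it with alpha, on few genes. Of 11 tested genes of the RAS, RAF, MEK and ERK families 1 rose and 1 fell with alpha (37.5% of all genes passed), and 2 rose and 2 fell with beta (40.9%), with medians of 0.07 and 0.07. BRAF was at 0.09 ± 0.10 with alpha and 0.18 ± 0.10 with beta and did not pass. MAPK3, which encodes an ERK kinase, was at 0.09 ± 0.05 and 0.08 ± 0.05 and did not pass. In KO2 1 of the 11 rose (30% of all genes passed), and in KO5 4 rose and 2 fell (51.2%), a share near the background. In KO5 MAPK3 fell by 0.29 ± 0.05 and the MEK2 gene MAP2K2 fell by 0.23 ± 0.04, while the MEK1 gene MAP2K1 rose by 0.18 ± 0.04. These KO5 values were not read with the GC trend removed. In KO2 BRAF and MAPK3 stood at 0.05 ± 0.08 and -0.02 ± 0.04 and did not pass.

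Upstream of RAS, 10 of 17 ligand and receptor genes were tested. With alpha 2 rose and 3 fell (37.5% of all genes passed), and with beta 1 rose and 4 fell (40.9%), with medians of -0.09 and -0.04. In KO2 2 rose and 3 fell (30%), and in KO5 3 rose and 4 fell (51.2%). MET, the receptor for hepatocyte growth factor, fell by 0.85 ± 0.05 with alpha (adjusted p = 2.19e-19) and by 1.09 ± 0.05 with beta (adjusted p = 1.07e-22), from 102 CPM with GFP to 56.1 and 47.6. MET rose by 0.24 ± 0.04 in KO2 and by 0.54 ± 0.04 in KO5. The receptor gene ERBB2 fell by 0.29 ± 0.04 with alpha and by 0.36 ± 0.05 with beta. Its partner ERBB3 fell by 0.28 ± 0.05 and 0.14 ± 0.05 with the forms and by 0.45 ± 0.04 in KO2. The ligand genes AREG, EREG, BTC, EGF, FGF2 and HGF had at most 5 counts in any library and were not tested. All 13 adaptors and RAS regulators were tested. With alpha 3 rose and 3 fell (37.5% of all genes passed), and with beta 5 rose and 2 fell (40.9%), with medians of 0.05 and 0.07. In KO2 2 rose and 1 fell (30%), and in KO5 6 rose and 1 fell (51.2%). With alpha and beta the adaptor GRB2 fell by 0.16 ± 0.04 and 0.18 ± 0.04 and the RAS exchange factor SOS2 rose by 0.20 ± 0.06 and 0.28 ± 0.06.

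Other known outputs of ERK formed the last list, which like the others was chosen with earlier results of these data known. Of 14 tested genes 9 rose and 5 fell with alpha (37.5% of all genes passed), and 8 rose and 4 fell with beta (40.9%), with medians of 0.41 and 0.30. RGS2, a regulator of G protein signalling, rose by 3.76 ± 0.10 with alpha, from 5.12 to 69.6 CPM, and by 2.58 ± 0.10 with beta (adjusted p = 1.01e-37 and 1.43e-28). IER3, an early response gene, rose by 1.30 ± 0.07 and 1.49 ± 0.07. ERRFI1, an inhibitor of the EGF receptor, rose by 0.79 ± 0.04 and 0.48 ± 0.04, and FOSL1, an AP-1 subunit, by 0.67 ± 0.04 and 0.60 ± 0.04. LIF, a cytokine gene, fell by 0.83 ± 0.09 and 0.54 ± 0.08. In KO2 7 rose and 4 fell (30% of all genes passed) and in KO5 5 rose and 6 fell (51.2%), with medians of 0.15 and -0.10. In KO2 the cyclin gene CCND1 rose by 0.92 ± 0.03, ERRFI1 by 0.77 ± 0.03 and FOSL1 by 0.55 ± 0.03, while EGR1 fell by 0.54 ± 0.05. In KO5 ERRFI1 fell by 1.62 ± 0.04, PHLDA1 fell by 0.65 ± 0.03 and the ephrin receptor gene EPHA2 fell by 0.52 ± 0.03, while FOS rose by 0.41 ± 0.09.

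**Figure D4:**
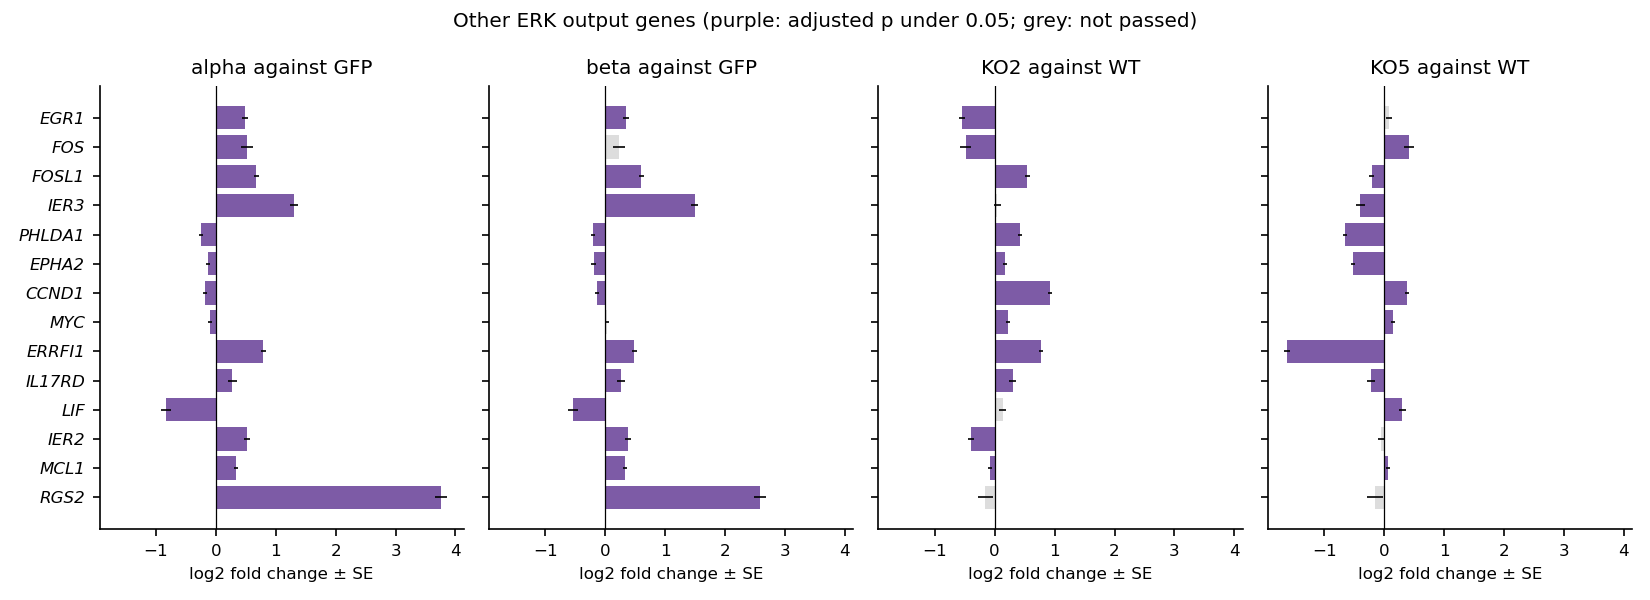
Log2 fold change ± SE (horizontal axis, n = 2 libraries per group) of the 14 tested ERK output genes outside the 10, with purple bars for adjusted p under 0.05 and grey bars otherwise. RGS2 has the longest bars with alpha (3.76) and beta (2.58), and ERRFI1 points right in KO2 (0.77) and left in KO5 (-1.62).

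Genes with a profile most like that of a member were sought for the 2 members whose group means spanned at least 1 on the log2 scale. Likeness was the root mean square difference of log2 CPM, centred over the 6 group means, among genes of at least 5 CPM in their highest group. ARHGAP5, C5orf34 and DDX58 were closest to SPRY2, at 0.09, 0.10 and 0.11. PPIC, EPG5 and ETS1 were closest to DUSP5, at 0.09, 0.09 and 0.10.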

How the data were processed

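The authors deposited raw counts per gene symbol, 1 file for each of 12 libraries; 2 entries that name no gene (no_feature, 9.13% to 10.8% of all counts, and ambiguous, 1.66% to 1.75%) were left out. The tools named, per the submitters' processing notes, are Bowtie2, TopHat and Cufflinks, and the build is hg19; versions, read counter and strand setting are not given in the sources used here. The authors' deposited tables give log2 fold changes with standard errors and adjusted p-values, from DESeq2 per the file names; another such table equals that for beta byte for byte and was left aside.

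Counts were tested with edgeR 4.0.16 in R 4.3.3: filterByExpr, TMM, 1 mean per group over all 12 libraries, glmQLFit (robust) and glmQLFTest, with Benjamini-Hochberg adjustment at 0.05 in 8 comparisons. Standard errors are Wald errors with the quasi-dispersion held at 1 or more. Intervals are 95%; they and limits from counts of 0 (3 counts) cover counting error and the spread between libraries at most. Lengths and GC content come from the longest GENCODE v29 transcript (12122 genes), and promoter sequences from RefSeq. The procedure was tested on simulated data.

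Members and lists were chosen with earlier results of these data known. Beyond the 10 members, PRDM1, BRAF and MAPK3, the rule named up to 4 genes per list in alpha, beta, KO2 and KO5, those that passed with the largest change and at least 5 CPM, and the 3 nearest profiles; part of them is given, and 1 gene the rule names is not reported here. Alternatives were DESeq2 1.42.0 size factors and Wald test, no filter, only the compared groups, a replicate block, each library left out, changes beyond 1.5-fold, PRDM1 left out, WT as control and, added after seeing the data, removal of the GC trend.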

Additional observations from a re-analysis of the deposited data

Results flagged for a closer look

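Results are listed here because the groups differed under the same contrast by a direct test (edgeR, adjusted over all tested genes). Between the forms of PRDM1, SPRY4 was higher with alpha than with beta by 0.19 ± 0.04. PRDM1 transcripts also differed in amount between these groups, so form and amount cannot be told apart. Between the knockout derivatives, SPRY2 was higher in KO5 than in KO2 by 0.57 ± 0.04, DUSP5 by 0.19 ± 0.07 and SPRED1 by 0.17 ± 0.05, and ETV4 stood at -0.24 ± 0.04. These were 4 of the 10 genes, where 54.9% of all tested genes passed. The DUSP5 call was lost without KO2 replicate 2 (0.16), without KO5 replicate 1 (0.16) and by the DESeq2 Wald test (0.19). SPRED1 and ETV4 lost the call with the GC trend removed (0.01 and -0.08).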

How the results depend on the processing

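Of 80 fold changes of the 10 genes in 8 comparisons, 39 passed, of which 25 kept the call in every alternative except the test for changes beyond 1.5-fold. That test left 3 genes with alpha (DUSP5, SPRY2 and SPRY4), 2 with beta and 2 in overexpression against knockout (DUSP5 and SPRY2 in both), and 0 in the other 5 comparisons, where 2.8%, 2.75% and 4.97% of all tested genes passed it in the first 3 and 0% to 3.43% in the others. With the GC trend removed the counts were 2 for KO5 against KO2 and 0 for GFP against WT. The count for KO5 against WT was 4, with SPRED2 gained, and that for KO2 against WT stayed at 5, with ETV4 gained and DUSP5 lost. ETV4 in KO5 against WT was the only called value to change sign (0.048). With libraries left out in turn the counts ran from 6 to 8 for alpha and 5 to 6 for beta against GFP, 2 to 4 for KO2 and 4 to 5 for KO5 against WT, 3 to 4 for KO5 against KO2, and 0 to 1 for GFP against WT. They stayed at 1 for alpha against beta and at 9 for overexpression against knockout. The lowest counts for KO2 against WT were 2 without KO2 replicate 1 and 3 without WT replicate 1, and that for GFP against WT was 0 without WT replicate 1. The cause was not tested.

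The replicate block changed no call (8 genes with alpha, 6 with beta). Same-numbered libraries did not deviate together across the tested genes (r from -0.07 to 0.06 in 15 pairs of groups, 0 over 0.1). The labels do not state whether they were handled together, and these values cannot exclude it. PRDM1 left out before scaling changed no call.

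Values near 0 that passed in neither setting also changed sign. For DUSP6 in beta against GFP they were -0.0085 with DESeq2 size factors, -0.0029 without the filter, -0.013 with only the compared groups, -0.0073 by the Wald test and -0.091 against WT. For ETV5 in alpha against beta they were 0.0012, 0.00050 and 0.00050 with size factors, the compared groups and the Wald test, and for DUSP4 in KO2 0.0019 with size factors and 0.00050 by the Wald test. With the GC trend removed they were 0.028 for DUSP4 and 0.0065 for ETV5 in KO2, -0.022 for SPRY2 in alpha against beta, -0.052 for DUSP6 and -0.0043 for ETV5 in KO5 against KO2, and 0.066 for DUSP5, -0.075 for SPRED1 and 0.093 for ETV4 in GFP against WT. With a library left out, DUSP4 ran from -0.053 to 0.10 in GFP against WT, -0.12 to 0.13 in KO2 against WT, -0.055 to 0.10 in beta against GFP and -0.020 to 0.12 in overexpression against knockout. DUSP5 ran from -0.050 to 0.023 in GFP and -0.028 to 0.046 in KO5 against WT, DUSP6 from -0.016 to 0.033 in KO5 against KO2 and -0.041 to 0.039 in beta against GFP, and ETV5 from -0.0079 to 0.020 in KO5 against WT and -0.016 to 0.012 in alpha against beta. SPRED1 ran from -0.010 to 0.040 in GFP against WT, -0.036 to 0.043 in KO2 against WT and -0.15 to 0.065 in alpha against beta, SPRY1 from -0.065 to 0.025 in GFP against WT, and SPRY2 from -0.045 to 0.056 in alpha against beta. Low counts limit DUSP4 and SPRY1 most.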
